A study of Rattus norvegicus with 6 samples.

Results

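The genes described here are 8 nuclear genes of mitochondrial iron, haem and iron-sulphur cluster handling, Slc25a37, Slc25a38, Abcb10, Abcb6, Tmem14c, Glrx5, Iscu and Nfs1, taken by gene symbol from the 17172 genes and loci listed for c-kit+ bone marrow cells of the rat. All 8 were listed, and 7 of them passed the expression filter that left 13547 genes for testing. The exception was Nfs1, which is described with an additional locus that the authors numbered. The study asked how the transcriptome of c-kit+ marrow cells differs under the stress of phenylhydrazine (PHZ), a compound that damages red cells and causes haemolytic anaemia. The PHZ group was 3 ACI rats given 100 mg/kg PHZ intraperitoneally, and the PBS group was 3 ACI rats given phosphate-buffered saline (PBS) by the same route. Rats of both groups were 6 to 8 weeks old, with 2 labelled female and 1 labelled male in each group, and their cells were taken 36 h after injection. Marrow cells of the hind legs were enriched through c-kit, a growth factor receptor on the surface of stem and progenitor cells and by early erythroid cells. Each rat gave 1 poly(A) RNA library.

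Haem and iron-sulphur clusters are made wholly or in part inside mitochondria, and developing red cells are the main makers of haem in the body. Iron enters the matrix through mitoferrins, glycine for the first step of haem synthesis enters through a carrier of its own, porphyrin intermediates cross the mitochondrial membranes, and ferrochelatase inserts iron into the ring. In the other branch, sulphur taken from cysteine and iron are joined on a scaffold protein, and the cluster is handed on by chaperones and a glutaredoxin. Loss of SLC25A38 or of GLRX5 causes sideroblastic anaemia in humans, in which iron collects in the mitochondria of erythroid precursors.

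Expected counts summed to 13196249 to 19492793 per library, so that 3 counts, the limit that a count of 0 allows, equal 0.154 to 0.227 counts per 1000000 (CPM). Y-linked transcripts went against the sex label in 3 of 6 libraries (PHZ replicate 3, PBS replicate 1 and PBS replicate 2). They exceeded 10 CPM in PHZ replicate 2, PHZ replicate 3 and PBS replicate 1. The libraries labelled male were only PHZ replicate 2 and PBS replicate 2. The group labels were used as given, and whether samples were exchanged, within a group or between the groups, was not tested. An exchange between the groups would touch every comparison below. Of 16 tested erythroid marker genes, 10 were higher in PHZ at an edgeR adjusted p under 0.05 and 0 were lower. The 14 erythroid markers that are not globins summed to 14760, 24150 and 20070 CPM in PHZ replicates 1, 2 and 3, against 11100, 7707 and 9204 CPM in PBS replicates 1, 2 and 3. Globin genes took 9.57% to 22.0% of counts in PHZ and 10.1% to 20.6% in PBS libraries. Markers of lymphoid lineages went the other way, with 8 of 12 B lineage and 7 of 11 T and NK lineage genes lower and 0 higher. Neutrophil markers had 2 of 13 lower and 0 higher, with estimates below 0 in 13 of 13, and summed to 6209 to 12500 CPM in PHZ and 13500 to 27740 CPM in PBS libraries. Of the others, 2 of 7 megakaryocyte, 2 of 6 stem and progenitor and 2 of 7 stromal and endothelial markers were lower. The shares over all tested genes were 8.99% higher and 4.17% lower. Megakaryocyte sums (271.7 to 320.9 CPM in PHZ, 401.7 to 470.1 CPM in PBS libraries) did not overlap. Nor did stromal and endothelial sums (130.6 to 184.0 CPM in PHZ, 231.4 to 717.7 CPM in PBS libraries), while stem and progenitor sums overlapped. Called were 0 of 12 monocyte and macrophage and 0 of 10 mast cell, basophil and eosinophil markers. The estimates of the latter were below 0 in 10 of 10, and their sums did not overlap (6159 to 10020 CPM in PHZ, 10860 to 14930 CPM in PBS libraries). Monocyte and macrophage sums overlapped (1574 to 2089 CPM in PHZ, 1504 to 4252 CPM in PBS libraries). PBS replicate 1 stood apart in its group, with monocyte and macrophage markers at 4252 CPM and stromal and endothelial markers at 718 CPM, against 1504 to 1693 CPM and 231 to 237 CPM in the other PBS libraries. Kit itself, the gene of the selection marker, had 33.9, 55.1 and 71.7 CPM in the PHZ group and 54.9, 63.9 and 51.7 CPM in the PBS group, and these overlapped. In bulk RNA, fewer cells of a type and less RNA per cell cannot be told apart, and the part of cell composition in the values below was not tested.

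Of the 7 tested genes, 3 were higher in PHZ libraries at an edgeR adjusted p under 0.05, namely the iron importer gene Slc25a37, the inner membrane transporter gene Abcb10 and the porphyrin transport gene Tmem14c. Over all 13547 genes tested, 8.99% were higher and 4.17% lower at that threshold (68.3% of calls were higher, against 58.7% under upper-quartile scaling and 56.7% by DESeq2). The point estimate was above 0 for 7 of 7, with a median log2 fold change of 0.90, beside -0.04 over all tested genes, of which 6445 were above 0. In 6 of the 7, every PHZ library lay above every PBS library, as in 22.5% of all tested genes, and Iscu was the exception. DESeq2, which called 14.1% of its tested genes higher, called 6 of the 8 genes, all but Iscu and Nfs1. The edgeR calls, of these genes and of all tested genes, depended on single libraries. Without PHZ replicate 1 the test called 7 of 7, and without PHZ replicate 2, PBS replicate 2 or PBS replicate 3 it called 0 (5, 5 and 6 at an unadjusted p under 0.05). Over all tested genes it called 1742 of 13811 without PHZ replicate 1 and 266 of 13919 without PHZ replicate 2. Without PBS replicate 2 it called 0 of 13815, and without PBS replicate 3 it called 0 of 13864.

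Promoter sequence is shown for 3 genes, for Abcb10 and Tmem14c because they were called and for Iscu because it had the smallest change. Each line holds the 250 bases before the annotated start, 5′ to 3′ on the strand of the gene, from RefSeq on build GRCr8, with capitals for the motifs searched.
Abcb10 (chr19:68880204-68880453, minus strand): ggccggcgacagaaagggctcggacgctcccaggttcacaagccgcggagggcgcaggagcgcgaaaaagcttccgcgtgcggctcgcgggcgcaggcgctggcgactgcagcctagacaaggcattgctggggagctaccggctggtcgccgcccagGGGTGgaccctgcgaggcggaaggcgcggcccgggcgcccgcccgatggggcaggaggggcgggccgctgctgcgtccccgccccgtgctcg
Tmem14c (chr17:23945623-23945872, minus strand): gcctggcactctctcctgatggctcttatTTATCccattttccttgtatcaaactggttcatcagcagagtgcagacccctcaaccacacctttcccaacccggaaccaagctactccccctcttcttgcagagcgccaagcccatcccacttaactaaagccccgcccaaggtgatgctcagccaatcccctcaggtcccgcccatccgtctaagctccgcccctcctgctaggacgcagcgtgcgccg
Iscu (chr12:48518697-48518946, minus strand): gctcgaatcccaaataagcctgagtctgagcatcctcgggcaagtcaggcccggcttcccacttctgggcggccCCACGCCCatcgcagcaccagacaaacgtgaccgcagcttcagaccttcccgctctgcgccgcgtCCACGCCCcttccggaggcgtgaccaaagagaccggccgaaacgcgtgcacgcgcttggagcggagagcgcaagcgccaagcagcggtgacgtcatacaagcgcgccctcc
The motifs, searched on both strands, were GATAA (bound by GATA factors), CACCC and CCACGCCC (bound by Krüppel-like factors), CACGTG (an E-box) and TGACNNNGC (the core of the antioxidant response element), and none overlapped another in these windows. CACCC occurs in 49.2% of 33469 RefSeq rat promoter windows of the same length, GATAA in 23.5%, TGACNNNGC in 10.1%, CACGTG in 5.59% and CCACGCCC in 4.04%. In the printed windows, Abcb10 holds 1 CACCC that begins 92 bases before the start, Tmem14c holds 1 GATAA at 221 bases, and Iscu holds 2 CCACGCCC at 176 and 111 bases. Slc25a38 holds 2 CACCC, Abcb6 holds 1 CACGTG, and Glrx5 holds none of the 5 motifs in its window. A match of letters is a description and not a bound site.

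Levels can be compared between genes on the per-length scale of the deposited FPKM (fragments per kilobase of transcript and per 1000000 fragments). Tmem14c was the highest of the 8 in all 6 libraries, at 450, 586 and 484 FPKM in PHZ replicates 1, 2 and 3 and 321, 287 and 249 FPKM in PBS replicates 1, 2 and 3. Slc25a37 came next in all 6, at 443, 517 and 464 FPKM in PHZ and 237, 159 and 154 FPKM in PBS libraries. Tmem14c stood above 97.9% to 99.0% of tested genes and Slc25a37 above 96.5% to 98.8%, so both belong to the abundant transcripts of these cells. The ranges of Tmem14c and Slc25a37 overlapped among PHZ libraries and did not overlap among PBS libraries. Glrx5 ranked next in all 6 libraries, with 108, 184 and 140 FPKM in PHZ and 85.5, 66.0 and 72.6 FPKM in PBS libraries.

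Further down the order, Iscu had 59.8, 93.8 and 81.8 FPKM in PHZ and 66.7, 53.9 and 55.5 FPKM in PBS libraries. Abcb10 had 77.9, 81.8 and 81.9 FPKM in PHZ and 42.4, 30.9 and 27.5 FPKM in PBS libraries. Abcb10 therefore stood above Iscu in 2 of 3 PHZ libraries and below it in 3 of 3 PBS libraries, and no other pair of the 8 genes changed its order as listed. In PHZ replicate 3 Abcb10 and Iscu were nearly equal (81.9 and 81.8 FPKM), so a clear change of order was seen in PHZ replicate 1 only. With Nfs1 taken by its additional locus, it stood above Abcb6 in 1 of 3 PHZ and 2 of 3 PBS libraries. Slc25a38 followed at 37.4, 53.4 and 45.4 FPKM in PHZ and 32.7, 30.2 and 25.3 FPKM in PBS libraries. Abcb6 was the lowest of the 7 tested genes, at 17.7, 28.8 and 27.9 FPKM in PHZ and 16.1, 14.2 and 14.3 FPKM in PBS libraries, still above 64.5% to 81.2% of tested genes.

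**Figure D1:**
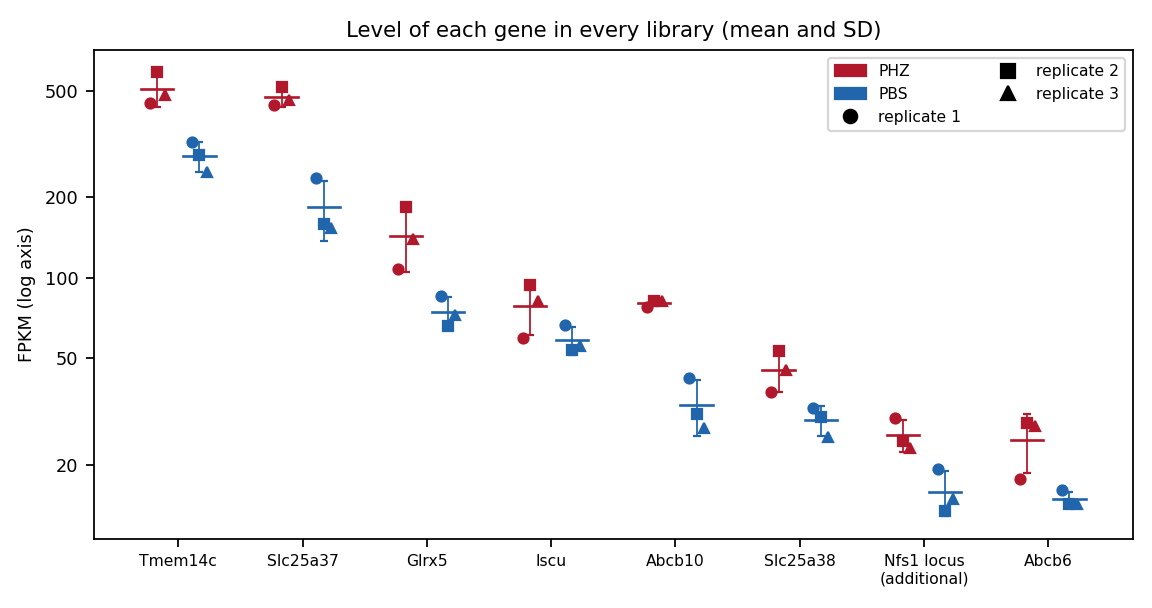
FPKM of each gene (vertical log axis) in the 3 PHZ libraries (red, left) and the 3 PBS libraries (blue, right), with a marker shape for each replicate and lines for the mean and SD; Nfs1 is shown by its additional locus. Tmem14c and Slc25a37 lie highest, and the red and blue points of Abcb10 are far apart (at least 77.9 FPKM in PHZ and at most 42.4 FPKM in PBS libraries).

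Among the transporters of the inner membrane, Slc25a37 (Entrez gene 306000) changed the most. It encodes mitoferrin 1, the iron importer of erythroid mitochondria. Its counts, scaled to CPM by TMM, were 635, 916 and 729 CPM in PHZ replicates 1, 2 and 3, against 350, 234 and 251 CPM in PBS replicates 1, 2 and 3. The groups were far apart, the lowest PHZ value being 1.81 times the highest PBS value. The means were 760 ± 143 CPM in PHZ and 279 ± 62.8 CPM in PBS rats (SD, n = 3 each), a log2 fold change of 1.45 (SE 0.22, 2.73-fold, 95% interval 1.88 to 3.96, edgeR adjusted p = 0.0212). Of all tested genes, 1.65% had a higher log2 fold change. The call was lost without PHZ replicate 2, PBS replicate 2 or PBS replicate 3 (edgeR adjusted p = 0.0552, 0.098 and 0.114). In the fits without PBS replicate 2 or PBS replicate 3, 0 of all tested genes were called.

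Abcb10 (Entrez gene 361439) encodes an ATP-binding cassette transporter of the inner membrane that in the mouse binds and stabilises mitoferrin 1. It had 246, 318 and 283 CPM in PHZ libraries, against 138, 100.1 and 98.5 CPM in PBS libraries. Here too the groups were far apart, with the lowest PHZ value 1.78 times the highest PBS value. The means were 282 ± 36.2 CPM in PHZ and 112 ± 22.4 CPM in PBS rats (SD, n = 3 each), a log2 fold change of 1.33 (SE 0.19, 2.52-fold, 95% interval 1.84 to 3.43, edgeR adjusted p = 0.0187), and 2.02% of tested genes had a higher one. As for Slc25a37, the call was lost without PHZ replicate 2, PBS replicate 2 or PBS replicate 3 (edgeR adjusted p = 0.0514, 0.0969 and 0.114). In the authors' deposited table, Slc25a37 and Abcb10 are marked as up, with log2 ratios of 1.37 and 1.26, and the other 6 genes are not marked. Of these, Tmem14c had the same rounded Probability score as the marked genes, with a log2 ratio of 0.83. Slc25a38, Abcb6, Glrx5 and Iscu had scores of 0.9587 to 0.9971, and Nfs1 had none.

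Slc25a38 (Entrez gene 301067) encodes the carrier that brings glycine into mitochondria for haem synthesis. It had 65.5, 111 and 87.6 CPM in PHZ libraries, against 59.3, 52.9 and 49.8 CPM in PBS libraries. The groups did not overlap, but PHZ replicate 1 lay only 6.18 CPM above PBS replicate 1. The estimate was 1.63-fold (log2 fold change 0.70, SE 0.21, 95% interval of the fold 1.16 to 2.29), and the gene was not called (edgeR adjusted p = 0.066). Without PHZ replicate 1 it was called (edgeR adjusted p = 0.0292). Reads of this gene and of Abcb6 were counted over 2 transcripts each, 1 of them added by the authors.

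Tmem14c and Abcb6 encode porphyrin transporters. Tmem14c (Entrez gene 171432), an inner membrane protein that in the mouse brings a porphyrin intermediate into the matrix, had 342, 549 and 402 CPM in PHZ libraries, against 252, 225 and 215 CPM in PBS libraries. The groups did not overlap, and PHZ replicate 2 was the highest. The means were 431 ± 106 CPM in PHZ and 230.3 ± 19.1 CPM in PBS rats (SD, n = 3 each), a 1.87-fold difference (log2 fold change 0.90, SE 0.20, 95% interval of the fold 1.34 to 2.61, edgeR adjusted p = 0.0369). The call held without PHZ replicate 1 and was lost when any of the other 5 libraries was left out (edgeR adjusted p from 0.0505 to 0.15), and also with sex as labelled (0.0565) or Y-linked transcripts (0.0705) as a covariate. The counts of Tmem14c were not whole, so some reads were divided with other sequences in the authors' counting, and its level is uncertain to that extent. An additional locus of 747 bases (BGI_novel_G001227), described in the files by transmembrane protein 14C of a bat, had 67.0, 116 and 77.2 CPM in PHZ and 47.2, 47.3 and 43.2 CPM in PBS rats. Summed with it, Tmem14c was 1.87-fold higher in PHZ (edgeR adjusted p = 0.0381). The summed counts were not whole in any library either, so the sum does not account for all the divided reads.

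Abcb6 (Entrez gene 140669), an ATP-binding cassette protein placed in the mitochondrial outer membrane as a porphyrin importer and also found in the plasma membrane of red cells, had 51.0, 102 and 91.2 CPM in PHZ libraries, against 47.9, 44.4 and 49.0 CPM in PBS libraries. PHZ replicate 1 was only 2.03 CPM above the highest PBS value, while PHZ replicates 2 and 3 stood far above all PBS values. The estimate was 1.73-fold (log2 fold change 0.79, SE 0.26, 95% interval of the fold 1.13 to 2.64), not called with 6 libraries (edgeR adjusted p = 0.0841) and called without PHZ replicate 1 (edgeR adjusted p = 0.0228).

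For the iron-sulphur branch, Nfs1, Iscu and Glrx5 stand in the order in which their products act. Nfs1 (Entrez gene 84594) encodes cysteine desulfurase, which supplies the sulphur. Under that identifier only PHZ replicate 1 and PBS replicate 2 had reads, 50.7 and 50.8 expected counts (1.31 and 1.56 FPKM), and the other 4 libraries listed none. An additional locus of 1999 bases (BGI_novel_G002512), which the files describe by the same rat cysteine desulfurase protein as Nfs1, held 1138, 876 and 594 expected counts in PHZ libraries and 590, 426 and 467 expected counts in PBS libraries. Its counts were not whole in the same 2 libraries that listed Nfs1, and the sums of gene and locus were whole there (1189 in PHZ replicate 1 and 477 in PBS replicate 2, within 0.01). The locus thus held most of the reads that the files assign to cysteine desulfurase in each of the 6 libraries.

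The additional Nfs1 locus had 54.0, 54.7 and 45.5 CPM in PHZ libraries, against 35.9, 24.8 and 30.6 CPM in PBS libraries, without overlap. Summed with the Entrez gene, cysteine desulfurase reads averaged 52.2 ± 5.85 CPM in PHZ and 31.4 ± 4.10 CPM in PBS rats (SD, n = 3 each), a 1.66-fold difference (log2 fold change 0.73, edgeR adjusted p = 0.0314). Unlike in the 7 tested genes, PHZ replicate 1 was not the lowest PHZ library for this locus. The locus alone was called with 6 libraries (edgeR adjusted p = 0.0377) and without PBS replicate 1 (edgeR adjusted p = 0.0348), and lost its call when any of the other 5 libraries was left out (edgeR adjusted p from 0.0609 to 0.14), or with sex as labelled (0.0597) or Y-linked transcripts (0.0786) as a covariate.

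Iscu (Entrez gene 288740), the scaffold on which clusters are built, had 48.0, 93.1 and 72.0 CPM in PHZ libraries, against 55.3, 44.6 and 50.6 CPM in PBS libraries. PHZ replicate 1 lay below PBS replicates 1 and 3, so the groups overlapped. The estimate was 1.42-fold (log2 fold change 0.50, SE 0.25), its 95% interval of 0.943 to 2.12 included no difference, and the gene was not called (edgeR adjusted p = 0.199). Without PHZ replicate 1 it was called (edgeR adjusted p = 0.0494). Glrx5 (Entrez gene 362776), the glutaredoxin that passes clusters on, had 209, 440 and 297 CPM in PHZ libraries, against 171, 132 and 160 CPM in PBS libraries. Its PHZ values did not overlap the PBS values and were the most scattered of the 7 tested genes, with a coefficient of variation of 37% in PHZ and 13.3% in PBS libraries. The means of 315 ± 117 CPM in PHZ and 154 ± 20.5 CPM in PBS rats (SD, n = 3 each) gave a 2.04-fold estimate (log2 fold change 1.03, SE 0.28, 95% interval of the fold 1.28 to 3.25) that was not called (edgeR adjusted p = 0.0562), and without PHZ replicate 1 it was called (edgeR adjusted p = 0.0273).

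**Figure D2:**
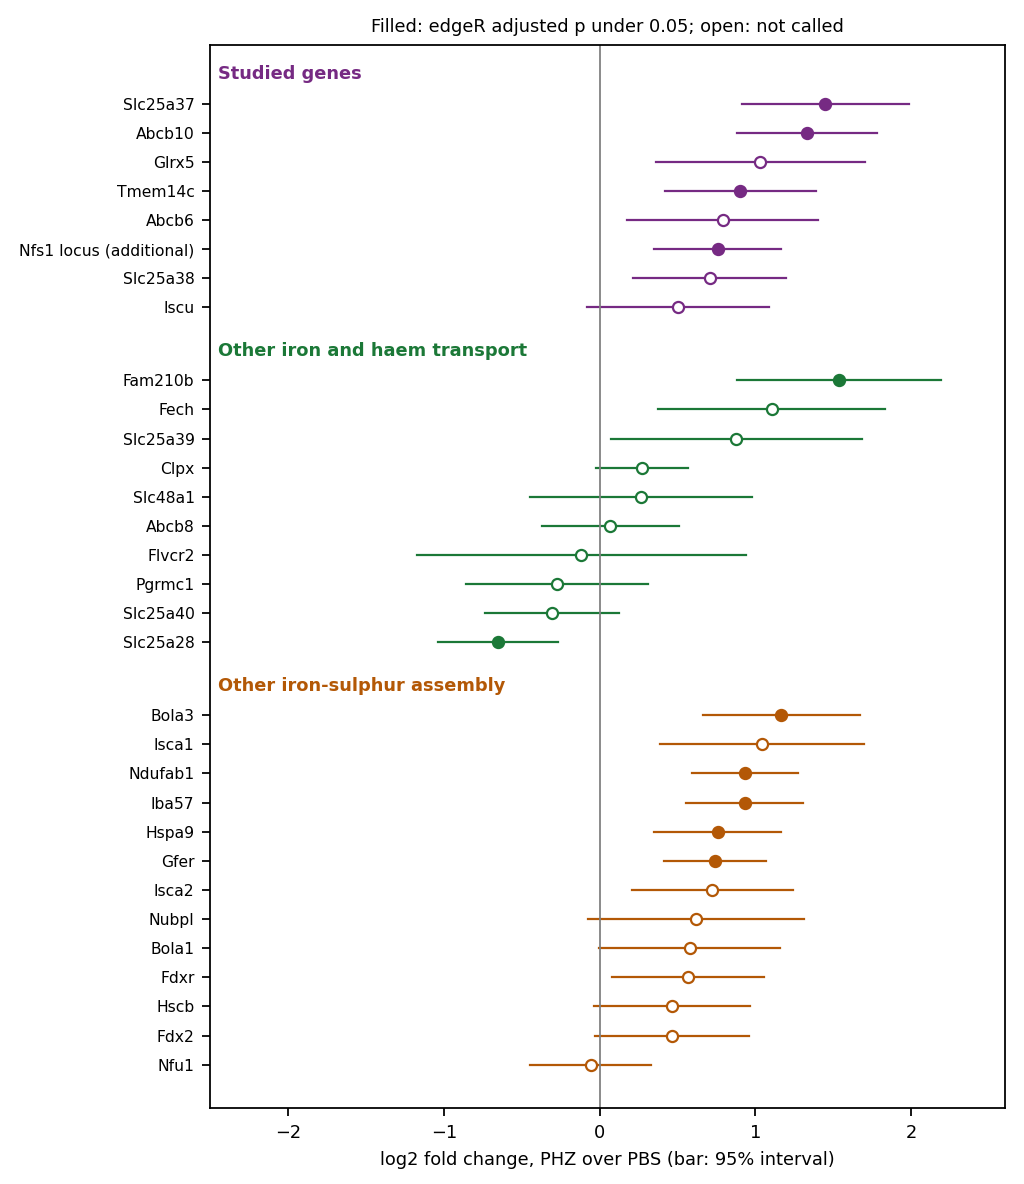
Log2 fold change of PHZ over PBS (horizontal axis; points, with bars for 95% intervals) for the studied genes and for other tested genes of mitochondrial iron and haem transport and of iron-sulphur assembly. Filled points mark an edgeR adjusted p under 0.05; Slc25a37 and Abcb10 are the highest of the studied genes (1.45 and 1.33), and Slc25a28 is the 1 filled point below 0.

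The 7 tested genes had the same order of the PHZ libraries. PHZ replicate 1 was the lowest and PHZ replicate 2 the highest PHZ library for 7 of 7, as for the summed erythroid markers. How many of all tested genes have this order was not counted, so it is not shown to be particular to these genes. Among PBS libraries, replicate 1 was the highest for 6 of 7 (Abcb6 was highest in PBS replicate 3), and without that library edgeR called 2 of the studied genes, Slc25a37 and Abcb10. Set against the erythroid markers of the same library, a description added after the values were seen, the genes differed in direction. The summed markers were 2.11-fold higher in PHZ. For each 1000 CPM of these markers, Slc25a37 had 43.0, 37.9 and 36.3 CPM in PHZ and 31.6, 30.4 and 27.3 CPM in PBS rats, so it exceeded the markers' own difference (1.31-fold).

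Abcb10 did likewise by a narrower margin, with 16.7, 13.2 and 14.1 CPM per 1000 CPM of markers in PHZ and 12.4, 13 and 10.7 in PBS libraries (1.22-fold). Iscu lay on the other side, with 3.26, 3.86 and 3.59 in PHZ and 4.98, 5.79 and 5.50 in PBS libraries (0.658-fold). Slc25a38 was lower on this scale too, with 4.44, 4.60 and 4.36 in PHZ and 5.34, 6.86 and 5.41 in PBS libraries (0.761-fold). For Abcb6, Tmem14c and Glrx5 the groups overlapped, with ratios of means of 0.795, 0.877 and 0.945. These ratios have no test, and the choice of markers sets their level.

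**Figure D3:**
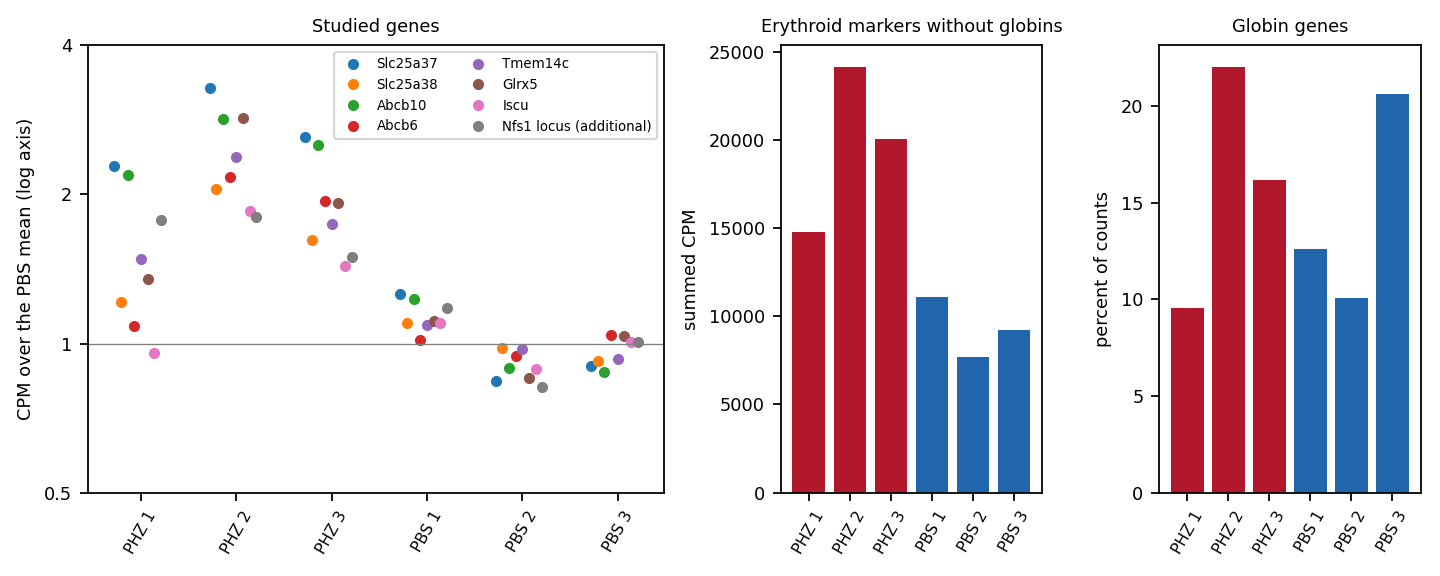
Left, CPM of each studied gene over its PBS mean (log axis) in every library; middle, summed CPM of 14 erythroid markers without globins; right, globin genes as a percent of counts; PHZ libraries are red and PBS libraries blue in the bars. PHZ replicate 1 is the lowest of the PHZ libraries and PHZ replicate 2 the highest for 7 of 7 tested genes and for the erythroid markers (14760 and 24150 CPM), while globins overlap between groups.

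Ratios of 2 genes within a library do not depend on scaling between libraries, and 4 were tested, 3 of them given here, with an exact permutation test that cannot go below p = 0.1 for 3 against 3. The ratio of mitoferrin 1 (Slc25a37) to mitoferrin 2 (Slc25a28), the mitoferrin of most other tissues, was 14.8, 21.7 and 16.6 in PHZ libraries, against 6.41, 2.91 and 3.72 in PBS libraries. It did not overlap between groups and was 4.25-fold higher in PHZ, with a log2 difference of 2.09 (two-sided exact permutation p = 0.1, 0.2 adjusted over the 4). Slc25a28 itself had 42.9, 42.2 and 43.8 CPM in PHZ libraries, against 54.6, 80.4 and 67.3 CPM in PBS libraries. It was nearly the same in the 3 PHZ libraries and lower than in each PBS library (log2 fold change -0.65, SE 0.16, 1.57-fold lower, edgeR adjusted p = 0.046). This call was lost when any library but PBS replicate 1 was left out (edgeR adjusted p from 0.0807 to 0.157).

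The ratio of Abcb10 to Abcb6 was 4.82, 3.11 and 3.11 in PHZ libraries, against 2.88, 2.25 and 2.01 in PBS libraries, a log2 difference of 0.61 (1.53-fold, two-sided exact permutation p = 0.1, 0.2 adjusted over the 4). The groups did not overlap, but the lower PHZ values lay close to the highest PBS value. Slc25a38 to Alas2, the gene of the erythroid enzyme that uses glycine, stood at 0.0634, 0.0480 and 0.0502 in PHZ and 0.0399, 0.0550 and 0.0269 in PBS libraries and overlapped (log2 difference 0.46, two-sided exact permutation p = 0.3, also 0.3 adjusted over the 4). Alas2 alone had 1033, 2315 and 1745 CPM in PHZ and 1485, 961 and 1848 CPM in PBS rats and was not called (1.19-fold, edgeR adjusted p = 0.658).

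**Figure D4:**
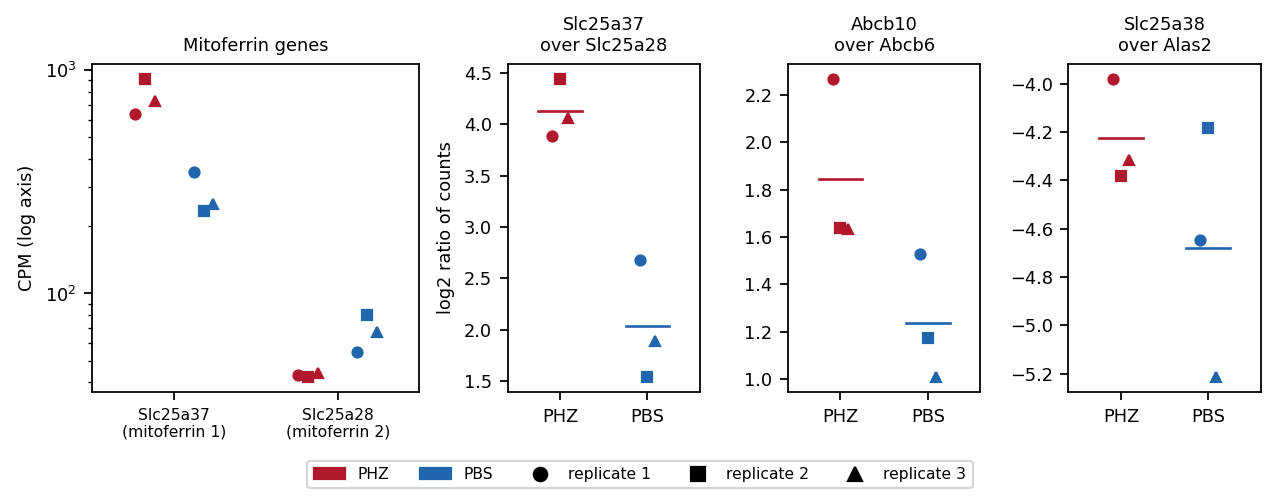
CPM of Slc25a37 and Slc25a28 (left panel, log axis) and the log2 ratio of counts of 3 gene pairs in every library, PHZ in red and PBS in blue, with marker shapes for replicates and a line for the group mean of each ratio. The mitoferrin ratio separates the groups widely (3.89 to 4.44 in PHZ and 1.54 to 2.68 in PBS libraries, log2), and the vertical scales of the ratio panels differ.

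Around these 8, the other genes of the pathway were taken from lists, and 65 of them were tested, with 22 called higher and 1 lower. Over all tested genes, 8.99% were called higher and 4.17% lower. Of 11 other genes of mitochondrial iron and haem transport, 2 were higher, 1 lower and 8 not called, with a median log2 fold change of 0.27. Fam210b, an inner membrane protein that in the mouse aids iron import in erythroid cells, had 146, 249.6 and 195 CPM in PHZ libraries, against 89.4, 53.0 and 61.0 CPM in PBS libraries (2.90-fold, edgeR adjusted p = 0.0238). The gene called lower was Slc25a28. Fech, ferrochelatase, was 2.15-fold higher by estimate and not called (edgeR adjusted p = 0.0584).

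In mitochondrial iron-sulphur assembly, 6 of 14 other genes were higher, 0 lower and 8 not called, with a median log2 fold change of 0.73. Among them were Ndufab1, the acyl carrier protein of the assembly complex (1.91-fold, edgeR adjusted p = 0.0205), Iba57 (1.91-fold, adjusted p = 0.0224) and Bola3 (2.24-fold, adjusted p = 0.0238), late-acting assembly factors, with Gfer and the chaperone gene Hspa9. Of 10 cytosolic assembly genes, 1 was higher, Ciapin1, an electron carrier of that pathway (1.81-fold, edgeR adjusted p = 0.0224), and 0 were lower. That count is near the 8.99% called higher over all tested genes, and the median log2 fold change of this list was 0.5. Enzymes that carry clusters had 8 of 23 higher and 0 lower, with a median log2 fold change of 0.52. The 8 included Ppat of purine synthesis (2.39-fold, edgeR adjusted p = 0.0154), Ndufs1 of respiratory complex I (1.81-fold, adjusted p = 0.0176) and Prim2 of DNA primase (1.85-fold, adjusted p = 0.0229). The haem synthesis enzymes had 5 of 9 higher and 0 lower, with a median log2 fold change of 1.10, among them Cpox (3.50-fold, edgeR adjusted p = 0.0175) and Alad (3.18-fold, adjusted p = 0.0229). Of the 65 genes, edgeR called 7 without PHZ replicate 2 and 8 without PHZ replicate 3, and 0 without PBS replicate 2 or PBS replicate 3 (35 in each case at an unadjusted p under 0.05). Of all tested genes it called 266 without PHZ replicate 2, 572 without PHZ replicate 3, and 0 without either PBS library.

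Because 3 libraries went against their sex label, the folds were also taken within libraries with and without Y-linked transcripts, 2 PHZ against 1 PBS with them and 1 PHZ against 2 PBS without them. Slc25a37 was 2.35-fold higher with and 2.62-fold higher without Y-linked transcripts, and Abcb10 2.18-fold and 2.48-fold. For Tmem14c the folds were 1.89 and 1.56, and for the additional Nfs1 locus 1.40 and 1.95. In the comparison without Y-linked transcripts, which rests on PHZ replicate 1, the folds were 1.43 for Glrx5 and 1.28 for Slc25a38, and near even for Abcb6 (1.09) and Iscu (1.01), beside 2.15, 1.67, 2.02 and 1.49 in the other. With Y-linked transcripts as a covariate over all 6 libraries, a fit chosen after seeing the data, edgeR called Slc25a37 and Abcb10 (adjusted p = 0.0403 each) and did not call the other 5 tested genes (adjusted p from 0.0705 to 0.378).

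By likeness of log2 CPM over the 6 libraries, among the 4736 genes whose mean log2 CPM reached 5, the gene closest to each was Cenpi for Slc25a37 (Pearson r = 0.998), Ddx23 for Abcb10 (0.999), Ska1 for Slc25a38 (0.996), Hypk for Tmem14c (0.998), Mical2 for Abcb6 (0.997), Ahsp for Glrx5 (0.998) and Stradb for Iscu (0.995). These are descriptions over 6 libraries that form 2 groups, each picked as the highest of many, and they carry no test.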

How the data were processed

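Poly(A) RNA of c-kit+ marrow cells was sequenced from 6 rats, 3 per group, 1 library each. Per the submitters' processing notes, the authors used HISAT, GATK and RSEM with build rn6; their roles, versions and settings are not stated there. For each library the deposited values are, per the file headers, an expected count (an estimated count, 72.8% to 74.1% of values whole within 0.005) and an FPKM value per gene, with transcript lengths; an unlisted gene was set to 0. The authors' deposited comparison gives group means of FPKM, the log2 of the PHZ to PBS ratio and a Probability score. The files hold 13411 Entrez genes and 3761 loci numbered by the authors as additional. Symbols came from that table. A RefSeq gene table of GRCr8 held 13332 of the 13411 genes and 8 of 8 studied genes, while 6 of the 8 had an entry among its promoters (not Slc25a37 and Nfs1).

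Expected counts were rounded to whole numbers and tested with edgeR 4.0.16 in R 4.3.3 (TMM, filterByExpr, glmQLFit robust, glmQLFTest), with treatment as the only term, all 6 libraries and Benjamini-Hochberg adjustment over all tested genes; called means an adjusted p under 0.05. CPM values are TMM-scaled, those of Y-linked genes per library total. Each standard error was obtained by dividing the size of the log2 fold change by the root of its F statistic. The libraries gave 4 residual degrees of freedom, and the test used a median of 6.69 after adding those that edgeR borrows across genes. The common biological coefficient of variation was 35.2%. In data simulated for this comparison over 13331 genes, the test recovered 22 of 100 planted 2-fold changes and 67 of 100 planted 4-fold changes, with 8 false among 97 calls. Only the planted genes changed there, fewer than the 1783 called in the real data. Recovery under this adjustment depends on the share of changed genes, so it may differ in the real data. Replicates differed by more than sampling noise (chi-square per degree of freedom 48.3 to 176.5), so none were merged. Limits from 3 counts cover counting error only.

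The genes and lists were chosen with earlier results of these data known. Named beside the 8 were the 3 called genes with the smallest p per list and direction, genes used in a ratio, and for each gene the most alike one, and some genes this rule takes are not reported here; Kit, Fech, Gfer and Hspa9 complete a count or description, a choice made with their values in view. Alternatives were DESeq2 1.42.0, limma 3.58.1 on log2(FPKM + 1), upper-quartile scaling, globin genes left out, no filter, a replicate block, sex as labelled, libraries against their sex label left out, each replicate left out, and, chosen after seeing the data, Y-linked transcripts as a covariate and genes summed with their additional locus.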

Additional observations from a re-analysis of the deposited data

How the results depend on the processing

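With 3 rats per group, calls turn on single libraries. The count of all genes called was 1783, and 3421 with DESeq2, 928 with sex as labelled, 435 with Y-linked transcripts as a covariate and 0 once the libraries against their sex label were dropped (1480 at an unadjusted p under 0.05), with 0 to 1744 when 1 library was left out. Dropping the libraries against their sex label leaves 2 PHZ and 1 PBS library with 1 residual degree of freedom, the lone PBS library being assumed to vary like the PHZ ones, so the loss of calls there says nothing about stability. Of the studied genes 3 were called, 6 with DESeq2, 2 with sex as labelled, 2 with Y-linked transcripts as a covariate and 0 once the libraries against their sex label were dropped (2 unadjusted), with 0 to 7 when 1 library was left out. Of the 65 pathway genes 23 were called, 15 with sex as labelled, 8 with Y-linked transcripts as a covariate and 0 once the libraries against their sex label were dropped (11 unadjusted), with 0 to 24 when 1 library was left out. With a replicate block, edgeR called 0 of all genes, 0 of the 7 and 0 of the 65 (4641, 6 and 40 at an unadjusted p under 0.05). The numbers are not known to pair rats: deviations of same-numbered libraries correlated at 0.213, 0.057 and 0.005, and not every library correlated best with its own number. In the paired sign-flip test of the ratios the smallest possible exact p is 0.25. Slc25a37 and Abcb10 were called in 10 of 15 alternatives, with log2 fold changes of 1.30 to 1.65 and 1.22 to 1.52, Tmem14c in 7 of 16 (0.70 to 1.06), the additional Nfs1 locus in 5 of 15 (0.63 to 0.90), Glrx5 in 3 (0.72 to 1.26), Abcb6 in 2 (0.57 to 1.04), Slc25a38 in 2 (0.51 to 0.89) and Iscu in 1 (0.26 to 0.72), each in 1 direction throughout. Slc25a28 was called in 4 of 15 (-0.78 to -0.50). Of 2 genes not called in any fit, Alas2 turned to -0.131 without the libraries against their sex label. PBS replicate 3 is the only PBS library there. Without PHZ replicate 2, Alas2 turned to -0.038. Kit, whose lowest value was -0.343 without PHZ replicate 3, turned to 0.162 without PHZ replicate 1 and 0.008 without PBS replicate 2. The cause of these changes was not tested. The difference of the mitoferrin log2 ratio, PHZ minus PBS, stayed between 1.84 and 2.41 when 1 library was left out.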
